A study of Caenorhabditis elegans with 10 samples.

Results

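The *phat* genes of *Caenorhabditis elegans* (pharyngeal gland toxin-related) were followed through 10 RNA-seq libraries of whole larvae carrying different alleles of *sftb-1*, the ortholog of the splicing factor gene *SF3B1*. The members were the genes that the deposited tables of normalized counts list under a *phat-* name, *phat-1* to *phat-6*. All 6 are present among the 46739 genes of the L4 table and the 15355 genes of the L2 table. 2 further genes, *phat-7* and *phat-8* of the current reference names, appear in the tables only by their sequence names C49G7.3 and F15A4.6. They are described with the family but are not counted among the members, and they were added after their values were seen. The members were chosen by name, but the family was selected on values already known, namely the changes of *phat-3*, *phat-4* and *phat-5* in L2 larvae, so the tests below describe the fit over all genes and support nothing on their own.

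The L4 animals were grown for 41 h and sequenced after selection of polyadenylated RNA. They were homozygous for *sftb-1*[K718E], as allele *cer3* in replicate 1 and *cer7* in replicate 2, or were wild-type siblings from the outcrosses of those alleles. The L2 animals were grown for 23 h and sequenced as total RNA depleted of ribosomal RNA. They were wild-type N2, homozygotes of the triple missense allele *cer39* (Q552P, R643C and K718E), or homozygotes of the deletion allele *cer6*, with n = 2 libraries in every group. Wild-type and *cer6* larvae were collected with an automated sorter and *cer39* larvae were not, so for *cer39* the allele and the absence of sorting cannot be told apart. The *cer6* homozygotes came from balanced heterozygous mothers and so start with maternal *sftb-1* product, and the study reports a small admixture of other larvae in the sorted samples. It also reports that *cer6* homozygotes arrest as early larvae with few germ cell divisions, and a mild developmental delay of *cer39*. The L2 stage was chosen there to avoid effects of defects seen later. The part of such delay in the values below was not tested. The alleles are carried by every cell of the animal, so no library isolates the glands, and in whole larvae fewer gland cells and less RNA per gland cell cannot be told apart.

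The pharyngeal glands are secretory cells embedded in the pharynx, the muscular feeding organ, and they empty through ducts into its lumen. Their secretion has been linked to feeding and to the shedding of the pharyngeal cuticle at each molt. The bHLH factor HLH-6 drives much of the gland program, and the *phat* genes are among the genes named for expression there, coding for small secreted proteins related to toxins. Where each *phat* protein acts is not addressed by these data, and no role is given here to a single member.

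The members lie in 3 places of the WBcel235 assembly (Ensembl release 115 annotation). *phat-1* (I:5044198-5045720) and *phat-2* (I:5046394-5048003) are neighbours on the minus strand of chromosome I with 673 bp between them. *phat-3* (V:4043932-4044951) and *phat-4* (V:4129904-4130909) lie on the plus strand of chromosome V and *phat-5* (V:4121489-4122515) on its minus strand. *phat-5* and *phat-4* are 7388 bp apart and point away from each other. *phat-7* (V:4046422-4047433) follows *phat-3* after 1470 bp on the same strand. *phat-6* (X:15193086-15194383) and *phat-8* (II:12471805-12473090) stand alone.

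The chromosome V genes share a layout that the choice by name did not use. Each has 3 exons and 2 introns, and the middle exon is 262 nt in *phat-3*, *phat-4* and *phat-7* and 259 nt in *phat-5*. Their coding sequences are 744 nt, 744 nt, 744 nt and 747 nt in the order *phat-3*, *phat-4*, *phat-7* and *phat-5*. *phat-2*, with 4 exons, also codes over 747 nt, whereas *phat-1* has 5 exons and 882 nt, *phat-6* 5 exons and 612 nt, and *phat-8* 4 exons and 429 nt. Whether genes of such like structure are also alike in sequence was not examined. Neither was how the counting divided any shared reads, so values of single chromosome V genes carry that uncertainty. On the opposite strand, an antisense RNA, *anr-10*, overlaps *phat-2*, and a non-coding RNA gene, C46H11.12, overlaps *phat-1*. The normalized count of *anr-10* did not exceed 0.97 in any L4 library, and that of C46H11.12 was 0 in all of them. Neither is among the genes of the L2 table used here.

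The total of recovered reads was 56996610 to 66563408 per L4 library and 45313448 to 76420127 per L2 library. Normalized counts (reads scaled by the authors to a common depth, with the transcripts of a gene summed) were tested on the log2(value + 1) scale with limma, and a gene was called at a Benjamini-Hochberg adjusted p below 0.05 over all genes of the table. The targeted gene followed its labels in *cer6*, where *sftb-1* had normalized counts of 3229 and 3580 against 6152 and 7222 in wild type, a log2 fold change of -0.97 (SE 0.129, limma adjusted p = 0.00592). The missense alleles change codons, so the level of *sftb-1* checks nothing there. Among the L2 groups, the wild-type libraries lay furthest apart, with 10.4% of tested genes differing by more than 2-fold between them against 2.72% in *cer39* and 4.93% in *cer6*. At L4 the K718E libraries carry different alleles, and the wild-type ones are the siblings of each. No label separates the L2 replicates of a group as biological or technical, although the study's methods call them biological. The p-values measure the spread between these libraries only.

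Gland markers outside the family were present throughout. *hlh-6* itself was detected in all 10 libraries at normalized counts between 18.4 and 69.5. The summed level of the 6 other gland genes (*hlh-6*, *kel-1*, *dod-6*, *lys-8*, *nas-12* and *scl-3*) was 15822 and 14173 (L2 wild type), 20784 and 17425 (*cer39*), 22773 and 23186 (*cer6*), and 14068 to 15685 over the L4 libraries. *lys-8*, a lysozyme gene that is also expressed outside the glands, makes up most of that sum.

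The members spanned a wide range of levels in wild-type L2 larvae. Per kb of annotated transcript, the mean normalized count was 5353 for *phat-4*, 1451 for *phat-2*, 652.5 for *phat-6*, 388.1 for *phat-1*, 321.0 for *phat-3* and 174.9 for *phat-5* (n = 2). On the same scale *phat-7* stood at 9370 and *phat-8* at 2752, so the single most abundant gene of the family carries a sequence name in the tables. In this order of levels per kb, the libraries of neighbouring genes did not overlap except for *phat-8* with *phat-2* and *phat-1* with *phat-3*. The order differed in the mutants, with *phat-5* ahead of *phat-2* in *cer39* (2813 and 1307 per kb) and *phat-3* ahead of *phat-1* in both mutants.

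**Figure D1:**
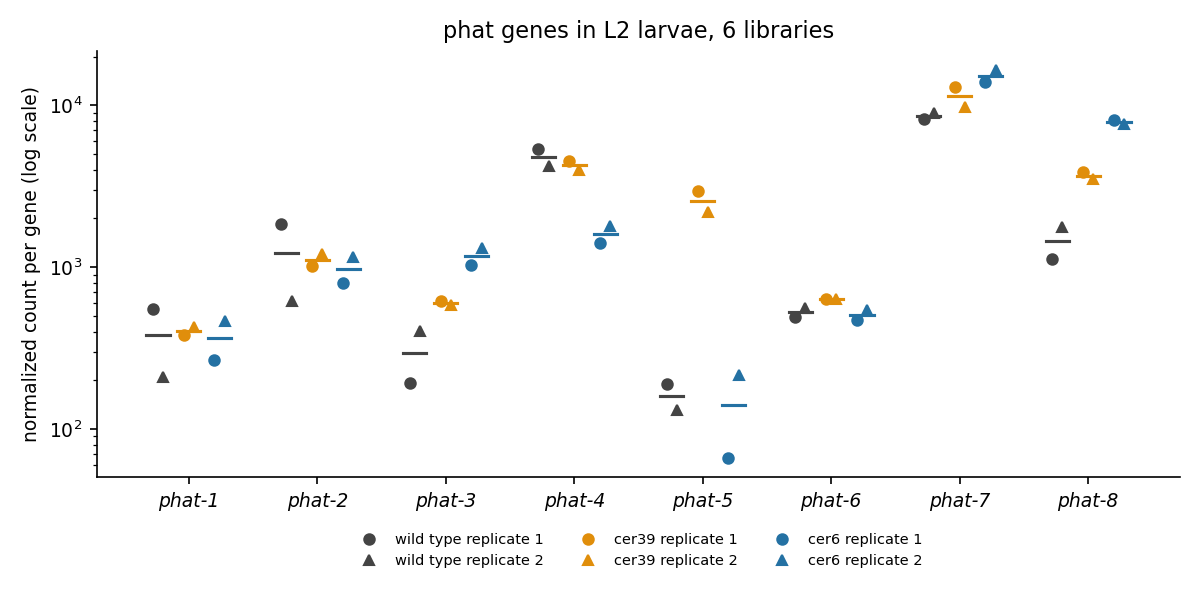
Normalized count per gene (log axis) of the 6 *phat* members and of *phat-7* and *phat-8* in 6 L2 libraries, with circles for replicate 1, triangles for replicate 2 and a bar at the mean of each group of 2 libraries. *phat-5* stands at 2194 and 2954 in *cer39* against 66.2 to 214 in the other groups. *phat-4* is lowest in *cer6*, and *phat-3*, *phat-7* and *phat-8* are highest there.

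The comparison of *cer39* with wild type sets unsorted larvae of the triple missense allele against sorted wild type at L2. In *cer39* a single *phat* member was called, *phat-5*, which stood about 16-fold above wild type. None of the other 5 members passed the threshold. Over all genes tested, 7.15% were called in this comparison (4.12% as higher), and 1 of 6 members was called, as higher. The median log2 fold change of the 6 members was 0.26 beside 0.0051 over all genes.

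*phat-5* had normalized counts of 189 and 131 in wild type and 2954 and 2194 in *cer39*. Both *cer39* libraries lay more than 10-fold above both wild-type libraries. The means were 160.0 ± 41.6 and 2574 ± 537 (SD, n = 2), a ratio of 16.1 and a log2 fold change of 4.01 (SE 0.556, limma adjusted p = 0.0234). Without either *cer39* library the change was 3.79 or 4.22 and the adjusted p from limma 0.166, with no gene of the whole table called in either of those fits.

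No fall of the close neighbour *phat-4* was resolved beside the rise of *phat-5*. *phat-4* had normalized counts of 5365 and 4196 in wild type and 4532 and 3995 in *cer39*, and the groups overlapped. Its log2 fold change was -0.16 (SE 0.181, limma adjusted p = 0.595). Of the reads of this gene pair, *phat-5* held 3.41% and 3.02% in wild type and 39.5% and 35.5% in *cer39*, and the pair's summed level was 5554 and 4327 in wild type and 7486 and 6189 in *cer39*.

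*phat-3* had normalized counts of 191 and 401 in wild type and 618 and 581 in *cer39*. Both *cer39* libraries were above both wild-type libraries, by 1.11 on the log2 scale (SE 0.354), and the adjusted p of 0.114 from limma did not pass the threshold. *phat-6* was also above wild type in both *cer39* libraries, at 638 and 635 against 489 and 560 (log2 fold change 0.28, limma adjusted p = 0.247). Such a separation, both mutant libraries above both wild-type ones, was met by 32.6% of all genes tested and by 3 of 6 members. Without wild-type replicate 2 the change of *phat-3* was 1.64, and without replicate 1 it was 0.58. Over the alternatives that kept all libraries of both groups its adjusted p ran from 0.0584 (DESeq2) to 0.163 (limma).

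Of the genes outside the rule, *phat-8* had 1118 and 1772 normalized counts in wild type and 3847 and 3490 in *cer39*. The groups did not overlap, and the log2 fold change was 1.38 (SE 0.224, limma adjusted p = 0.0297), with an adjusted p of 0.0714 when only the 4 libraries compared were fitted and 0.0000318 to 0.196 over all alternatives. *phat-7*, at 8213 and 8915 in wild type, reached 12876 and 9786 in *cer39*, and its difference of 0.39 on the log2 scale (SE 0.173) had a limma adjusted p of 0.201.

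None of the 6 other gland genes was called in *cer39* with limma (2 had an unadjusted p below 0.05), and their median log2 fold change was 0.30. *scl-3*, which codes for a secreted protein of the SCP family, had normalized counts of 1403 and 1838 in wild type and 2559 and 2135 in *cer39*. None of the listed markers of pharyngeal muscle, pharynx organ factors, body wall muscle, intestine, neurons, hypodermis, germ line or molting was called either. Of all 51 listed markers tested, those of the glands included, 11 had an unadjusted p below 0.05. The share of all genes below that unadjusted p is not given for the L2 comparisons, so no excess is read from such counts. The 8 molting genes summed to 40564 and 68937 in *cer39* and to 68220 and 195790 in wild type, with a median log2 fold change of -1.09. The 4 germ line genes tested summed to 6815 and 5402 in *cer39* and to 10303 and 15966 in wild type, with a median of -1.01. The part of these differences in the *phat* values was not tested.

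The comparison of *cer6* with wild type sets the deletion allele against wild type, with larvae of both groups sorted. Here *phat-3* rose about 4-fold and *phat-4* was about 3-fold lower, while the *phat-5* libraries of *cer6* lay on either side of those of wild type. Over all genes tested 27.6% were called, 13.8% as higher and 13.8% as lower, and of the 6 members 1 was called as higher and 1 as lower. The median log2 fold change of the members was -0.10 beside -0.0071 over all genes. Both *cer6* libraries lay above both wild-type libraries for 1 of 6 members and for 31.1% of all genes, and below them for 1 of 6 members and 32.7% of all genes.

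*phat-4* had normalized counts of 1417 and 1790 in *cer6* against 5365 and 4196 in wild type. Both *cer6* libraries were far below all other L2 libraries. The means were 1604 ± 264 and 4781 ± 826 (SD, n = 2), 2.98-fold lower in *cer6*, and the level fell by 1.57 on the log2 scale (SE 0.181, limma adjusted p = 0.00408). This call held in every alternative, with adjusted p-values between 8.71e-11 and 0.0295.

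*phat-3* had normalized counts of 1027 and 1316 in *cer6* against 191 and 401 in wild type. The groups did not overlap, although the wild-type libraries differed by 2.09-fold between themselves. The means were 1171 ± 204 and 296.0 ± 148 (SD, n = 2), a ratio of 3.96 and a log2 fold change of 2.07 (SE 0.354, limma adjusted p = 0.0120). Without *cer6* replicate 1 the limma adjusted p was 0.0544 and without replicate 2 it was 0.0729, in a range of 4.96e-06 to 0.0729.

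The 2 genes next to each other on chromosome V, *phat-3* and *phat-7*, were both higher in *cer6*. *phat-7* had 13897 and 16474 normalized counts in *cer6*, above 8213 and 8915 in wild type in both libraries (log2 fold change 0.82, SE 0.173, limma adjusted p = 0.0219). Its call was lost without wild-type replicate 1 (adjusted p = 0.0579), *cer6* replicate 1 (0.0606) or *cer6* replicate 2 (0.10), over a range of 0.000849 to 0.10 in all alternatives. *phat-3* held 6.88% and 7.39% of the reads of this pair in *cer6* and 2.28% and 4.30% in wild type, so its share of the pair was higher although *phat-7* was higher too.

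*phat-8* showed the widest gap between *cer6* and wild type in the family. Its normalized counts were 8057 and 7616 in *cer6*, 5.42 times the wild-type mean, with a log2 fold change of 2.48 (SE 0.224, limma adjusted p = 0.00256). The *cer6* libraries also lay above both *cer39* libraries, so the 3 groups followed each other without overlap, as they did for *phat-3* and *phat-7*. The call held in every alternative, with adjusted p-values between 2.69e-17 and 0.0247.

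*phat-5* had normalized counts of 66.2 and 214 in *cer6*, which overlapped with wild type, and a log2 fold change of -0.40 (SE 0.556, limma adjusted p = 0.640). *phat-6* had 468 and 544, within a small distance of the 489 and 560 of wild type (log2 fold change -0.05, SE 0.140, limma adjusted p = 0.813). These values show no difference that this spread could resolve, which is not the same as equal levels.

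**Figure D2:**
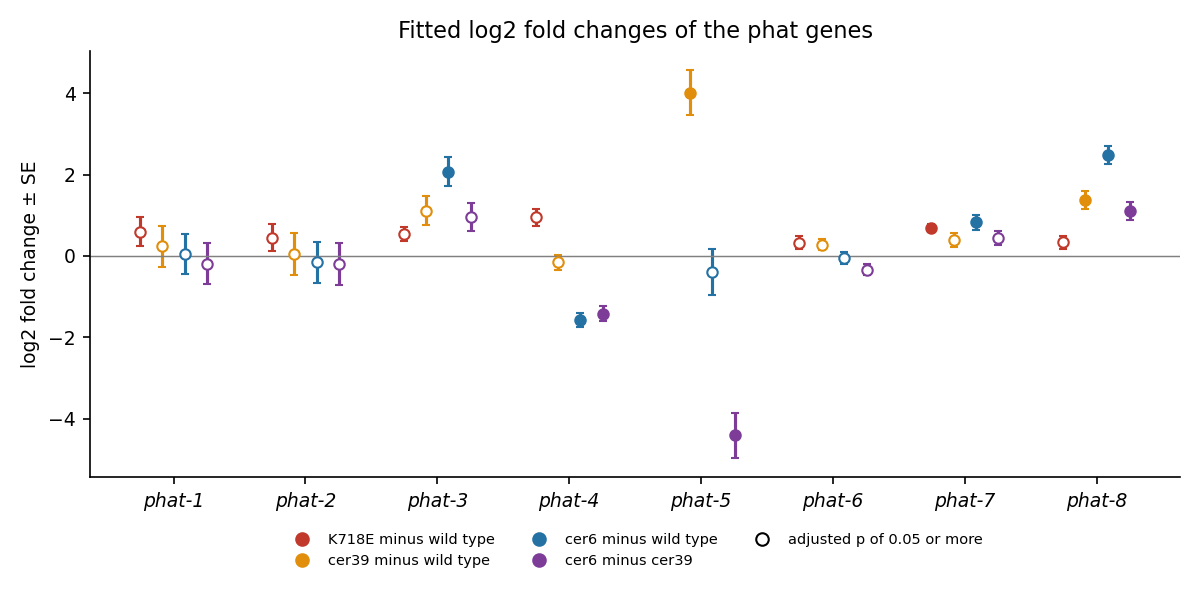
Fitted log2 fold change with its standard error for each *phat* gene (horizontal axis) in 4 comparisons, with filled points for a limma adjusted p below 0.05 over all genes and open points for the rest. *phat-5* reaches 4.01 in *cer39* and -4.40 between *cer6* and *cer39*, *phat-4* is called only in the comparisons of *cer6*, and *phat-1*, *phat-2* and *phat-6* have open points throughout. *phat-5* was too low in L4 animals to enter the main fit.

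Among the 6 other gland genes, *lys-8* was higher in *cer6* (log2 fold change 0.85, limma adjusted p = 0.0110) and *scl-3* lower (-0.91, limma adjusted p = 0.0238). The level of *scl-3* was 960 and 757 in *cer6* against 1403 and 1838 in wild type. The other 5 genes of the list had positive fitted changes, and the median of the 6 was 0.44. *hlh-6* had 33.6 and 69.5 in *cer6* and 41.9 and 32.1 in wild type, and the groups overlapped. *tnt-4*, a troponin T gene of pharyngeal muscle, was called lower in *cer6* (log2 fold change -1.05, limma adjusted p = 0.0294), as was the pharynx factor *tbx-2* (-0.61, limma adjusted p = 0.0481). The summed level of the 6 pharyngeal muscle markers was 17885 and 22341 in *cer6* and 26844 and 62238 in wild type, and its part in the *phat-4* result was not tested.

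The calls in the remaining lists were few. In *cer6* the neuropeptide processing genes *egl-21* (log2 fold change 0.69, limma adjusted p = 0.00979) and *egl-3* (0.72, limma adjusted p = 0.0137) were higher. The hypodermal factor *elt-1* (-0.69, limma adjusted p = 0.0111) and the germ line genes *pgl-1* (-0.72, limma adjusted p = 0.0468) and *htp-3* (-0.87, limma adjusted p = 0.0410) were lower. No gene of the body wall muscle, intestine or molting lists was called. Of 6 intestine genes 3 had an unadjusted p below 0.05. At least 27.6% of all genes did so too, as that share was called after adjustment.

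The L2 mutants were then set against each other, in the same fit, again with sorted *cer6* and unsorted *cer39* larvae. *phat-4* and *phat-5* were both lower in *cer6* than in *cer39*, *phat-5* by 18.4-fold and *phat-4* by 2.66-fold. Over all genes 19.6% were called, 9.11% as higher in *cer6* and 10.5% as lower, and 2 of 6 members were called as lower. Both *cer6* libraries lay above both *cer39* libraries for 1 of 6 members (34.2% of all genes), *phat-3*, and below them for 3 of 6 (33.6% of all genes), *phat-4*, *phat-5* and *phat-6*. These values share libraries with the comparisons against wild type above and are no second measurement of them.

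For *phat-5* the log2 fold change was -4.40 (SE 0.556, limma adjusted p = 0.00908), and for *phat-4* it was -1.42 (SE 0.181, limma adjusted p = 0.00920). *phat-8* was higher in *cer6* by 1.10 (SE 0.224, limma adjusted p = 0.0272), a call lost without either *cer39* library (0.143 and 0.142) or either *cer6* library (0.116 and 0.118), in a range of 0.000463 to 0.143. *phat-3* was higher by 0.95 (SE 0.354) with a limma adjusted p of 0.117. Its call depended on the setting, with an adjusted p of 0.0136 when only the 4 libraries compared were fitted and a range of 0.0136 to 0.364. Without *cer39* replicate 1 the *phat-4* and *phat-5* calls were lost (adjusted p = 0.0937 for both), as they were without *cer39* replicate 2 (0.0648 for both), and that of *phat-4* without *cer6* replicate 1 (0.0529). The ranges over all alternatives were 1.80e-08 to 0.0937 for *phat-4* and 1.01e-12 to 0.0937 for *phat-5*.

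Of the gland list, *lys-8* was higher in *cer6* than in *cer39* (0.57, limma adjusted p = 0.0441) and *scl-3* lower (-1.45, limma adjusted p = 0.0105). 3 of 6 pharyngeal muscle markers were lower in *cer6*, namely *tnc-2* (-0.99, limma adjusted p = 0.0313), *tni-4* (-1.05, limma adjusted p = 0.0204) and *tnt-4* (-1.28, limma adjusted p = 0.0233). The molting gene *qua-1* was higher (1.48, limma adjusted p = 0.0356). Outside these lists, *egl-21* (0.51, limma adjusted p = 0.0311), *egl-3* (0.63, limma adjusted p = 0.0275) and *gld-1* (1.12, limma adjusted p = 0.0300) were higher and *elt-1* (-1.10, limma adjusted p = 0.00793) was lower in *cer6*.

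The genes around the chromosome V members were examined in the same fits. Within the stretch from 10 kb left of *phat-3* to 10 kb right of *phat-4*, 106.978 kb in all, 15 annotated genes other than the *phat* genes had enough reads in L2 larvae to be tested. Of these, limma called 1 in *cer39* (7.15% of all genes), 0 in *cer6* (27.6% of all genes) and 2 between *cer6* and *cer39* (19.6% of all genes). Below an unadjusted p of 0.05 stood 5, 2 and 3. The shares of all genes there are not given, so no excess is read from these counts. With 15 genes such counts say little about the region. T05B4.12, the tested gene between *phat-5* and *phat-4*, had 17.1 and 6.64 normalized counts in wild type and 8.47 and 8.04 in *cer39*. T05B4.9, the nearest tested gene on the other side of *phat-5*, stood at 15.2 and 12.2 (wild type), 63.2 and 30.4 (*cer39*), and 11.8 and 5.79 (*cer6*), so at a far lower level it was also highest in *cer39*. Its log2 fold change was 1.62 in *cer39* (limma adjusted p = 0.112) and -2.27 between *cer6* and *cer39* (limma adjusted p = 0.0346). The pseudogene WBGene00017035 changed by 2.53 in *cer39* (limma adjusted p = 0.0296) and by -1.77 between *cer6* and *cer39* (limma adjusted p = 0.0366). *nhr-57*, a nuclear receptor gene to the right of *phat-4*, stood at 485 and 413 (wild type), 686 and 741 (*cer39*), and 548 and 427 (*cer6*).

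**Figure D3:**
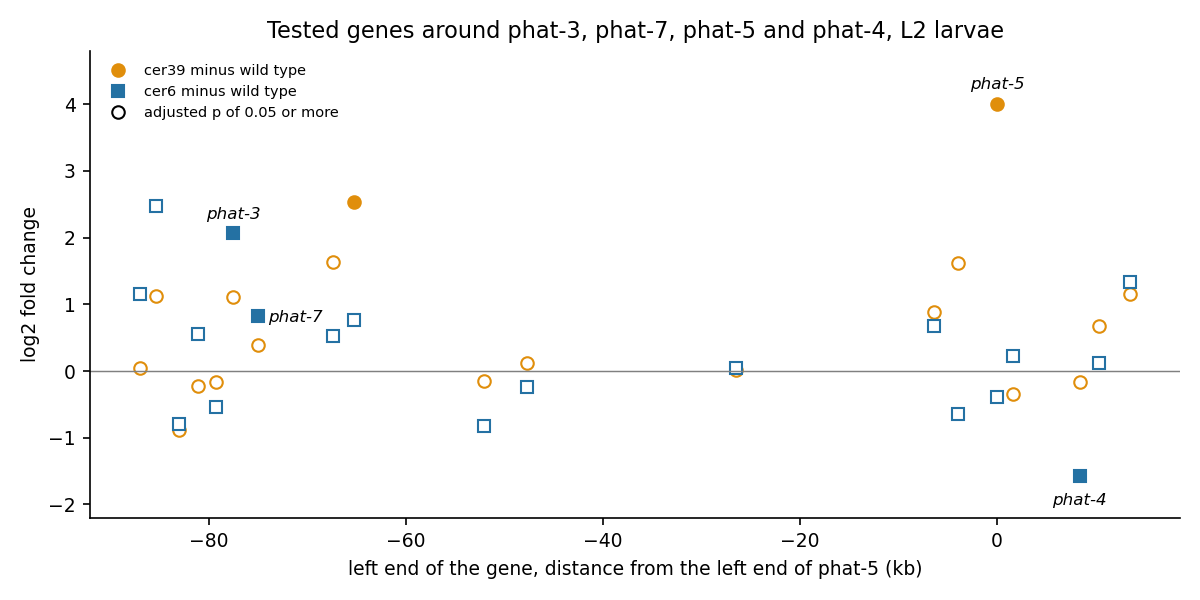
Log2 fold change against wild type (vertical axis) of the genes tested in L2 larvae around *phat-3*, *phat-7*, *phat-5* and *phat-4*, placed by the distance of their left end from that of *phat-5* in kb. Circles are *cer39* and squares *cer6*, filled where the limma adjusted p was below 0.05. *phat-5* is the highest point at 4.01 and *phat-4* the lowest at -1.57, and of the 15 other genes 1 has a filled point, a pseudogene in *cer39*.

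*phat-1* and *phat-2*, the chromosome I pair, varied together and mainly within groups. For *phat-1* the normalized counts were 553 and 209 (wild type), 381 and 424 (*cer39*), and 266 and 467 (*cer6*). For *phat-2* they were 1837 and 621 (wild type), 1018 and 1197 (*cer39*), and 796 and 1156 (*cer6*). For both genes the wild-type libraries held the highest and the lowest of the 6 values, 2.64-fold apart for *phat-1* and 2.96-fold for *phat-2*, and all groups overlapped.

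The ratio of *phat-2* to *phat-1* was between 2.48 and 3.32 in every L2 library, a far narrower span than that of either gene. Over the 6 L2 libraries their log2 values had Pearson r = 0.96, as a description of 6 points that share 3 groups. No comparison called either gene (limma adjusted p from 0.779 to 0.960 in *cer39* and from 0.847 to 0.95 in *cer6*). The sign of these small differences turned with the library left out.

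Other genes separated the wild-type libraries in the same way. *nas-12*, an astacin protease gene of the gland list, had 278 and 49.8 normalized counts in the wild-type libraries, and *nas-36*, a protease gene of the molting list, had 2303 and 579. The molting genes *noah-1* and *mlt-11* stood apart in the other direction, with 20171 and 82392 for *noah-1* and 6046 and 32799 for *mlt-11*. Molting genes are known to be transcribed in waves within each larval stage. Whether the libraries differ in age within the stage, and the part of that in the *phat-1* and *phat-2* values, was not tested.

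Among the other genes of the family, *phat-3* had Pearson r = 0.98 with *phat-8* and 0.92 with *phat-7*, and -0.84 with *phat-4*, over 6 libraries. *phat-5* had r = 0.90 with *phat-6*, both being highest in *cer39*, and 0.51 with *phat-4*. These values restate the differences between groups and are given with no test.

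Genes whose pattern was most like each member were sought among 11703 other genes with a mean of at least 100. For *phat-4* these were *abu-8* (r = 0.999), *abu-1* (0.997) and *lpd-9* (0.996), and 407 genes (3.48%) had r above 0.95. For *phat-5* they were Y69H2.15 (0.997), F38H4.3 (0.997) and *hrg-7* (0.986), with 40 genes (0.342%) above 0.95. For *phat-3* they were *spp-18* (0.994), *valv-1* (0.991) and T28A11.16 (0.991), with 127 genes (1.09%) above 0.95.

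*phat-1* was most like *dpf-1* (0.995), K02E2.8 (0.988) and *nas-13* (0.983), and *phat-2* like C35A5.10 (0.996), C26B2.8 (0.993) and K02E2.8 (0.988). K02E2.8 thus stands in the lists of both chromosome I genes. *phat-6* had the fewest genes above 0.95, 10, led by C24B5.4 (0.987), Y75B8A.31 (0.982) and *stn-2* (0.980). With 6 libraries in 3 groups a high r arises easily, and each value describes these libraries only.

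In L4 animals the question was what the single K718E substitution does to gene levels. None of the 5 members tested was called in K718E with limma, where 0.398% of all genes were, and none with edgeR or DESeq2 on the recovered reads. All 5 had positive fitted changes, with a median of 0.54 beside -0.0057 over all genes. Under an unadjusted p of 0.05 stood 2 of the 5, *phat-3* and *phat-4*, and 20.3% of all genes.

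**Figure D4:**
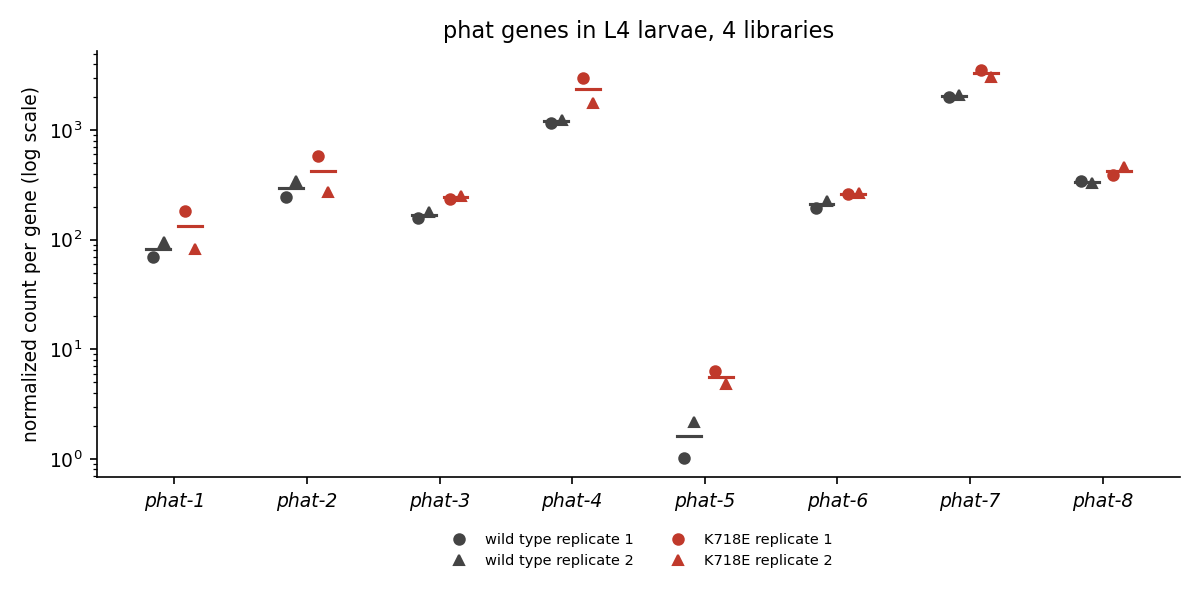
Normalized count per gene (log axis) of the 6 *phat* members and of *phat-7* and *phat-8* in 4 L4 libraries, with circles for replicate 1 (*cer3* and its wild-type sibling), triangles for replicate 2 (*cer7* and its sibling) and a bar at the mean of each group of 2. *phat-4* stands at 1777 and 3023 in K718E against 1167 and 1235 in wild type, and *phat-5* lies under 10 in all 4 libraries.

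*phat-4* had normalized counts of 1167 and 1235 in the wild-type siblings and 3023 and 1777 in K718E. Both K718E libraries were higher, the *cer3* line most. The means were 1201 ± 48.2 and 2400 ± 881 (SD, n = 2), a log2 fold change of 0.95 (SE 0.212, limma adjusted p = 0.117). With the outcross as a block, which pairs each mutant line with its own sibling, the limma adjusted p was 1.18e-07. That fit called 1 of the 5 members and 625 genes over the whole table instead of 63. It leaves each gene almost no spread of its own, so this p rests mainly on spread borrowed from all genes. The rise differed between the pairs, from 1167 to 3023 with *cer3* and from 1235 to 1777 with *cer7*. Over the alternatives that kept all libraries, the limma adjusted p of *phat-4* ran from 1.18e-07 (the block) to 0.207 (no filter on low values). Without K718E replicate 1 the log2 fold change was 0.57, and without replicate 2 it was 1.33.

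*phat-3* had 157 and 179 normalized counts in wild type and 237 and 251 in K718E, and *phat-6* had 194 and 225 against 259 and 266. For both genes the groups did not overlap. The log2 fold changes were 0.54 (SE 0.170, limma adjusted p = 0.155) and 0.33 (SE 0.164, limma adjusted p = 0.302). Together with *phat-4*, 3 of 5 members had both K718E libraries above both wild-type ones, as had 25.4% of all genes tested.

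*phat-7* was the family's only gene past the threshold at L4. It had normalized counts of 1995 and 2099 in wild type and 3533 and 3069 in K718E, with no overlap. The log2 fold change was 0.69 (SE 0.104, limma adjusted p = 0.0386), and the call was lost with no filter on low values (0.103). The call was also lost without wild-type replicate 1, where the change was 0.65. Over the alternatives that kept all libraries the adjusted p ran from 7.08e-07 (DESeq2) to 0.103 (limma). *phat-8* had 343 and 330 in wild type and 389 and 461 in K718E (log2 fold change 0.33, SE 0.149, limma adjusted p = 0.256).

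*phat-1* had 69.6 and 94.8 normalized counts in wild type and 182 and 82.8 in K718E, and *phat-2* had 246 and 342 against 578 and 272. In both genes only the *cer3* line stood above both wild-type siblings, and the groups overlapped. The log2 fold changes were 0.59 (SE 0.358, limma adjusted p = 0.374) and 0.45 (SE 0.323, limma adjusted p = 0.447). Without K718E replicate 2 they were 1.16 and 0.99, and without K718E replicate 1 they were 0.028 and -0.092. Over the alternatives that kept all libraries the limma adjusted p ran from 0.156 to 0.472 for *phat-1*. For *phat-2* it ran from 0.153 to 0.549.

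*phat-5* was nearly silent at L4. Its libraries held 1 and 2 reads in wild type and 7 and 5 in K718E, or normalized counts of 1.02, 2.18, 6.32 and 4.87. With so few reads it was left out of the main fit and no fold is given. In the fit with no filter on low values it was not called (limma adjusted p = 0.256).

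Markers of other tissues moved in the K718E animals as well. Of the pharyngeal muscle list 3 of 6 were called higher, *myo-1* (log2 fold change 1.12, limma adjusted p = 0.000890), *myo-2* (1.27, limma adjusted p = 0.000929) and *tnt-4* (0.93, limma adjusted p = 0.00690), and the list summed to 47620 and 44740 in K718E against 22862 and 21859 in wild type. Of the body wall muscle list 3 of 5 were called higher, *unc-54* (1.29, limma adjusted p = 0.00144), *unc-15* (1.05, limma adjusted p = 0.00270) and *myo-3* (1.12, limma adjusted p = 0.00341), as was *egl-3* of the neuronal list (0.55, limma adjusted p = 0.0422). None of the 6 other gland genes was called (2 had an unadjusted p below 0.05), with a median log2 fold change of 0.34. No gene of the pharynx factor, intestine, hypodermis, germ line or molting lists was called. The part of these markers in the *phat* values was not tested.

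The levels of the family at the L2 and L4 stages come from tables that were normalized separately and from different library types, so they are set side by side with no comparison. In wild type the 6 members summed to 8625 and 6117 normalized counts at L2 and to 1834 and 2078 at L4. At L2 the same sum was 10141 and 9025 in *cer39* and 4041 and 5487 in *cer6*, and at L4 it was 4285 and 2654 in K718E. *phat-4* had the highest level per kb of the 6 in all 5 groups, and *phat-5* the lowest in all but *cer39*.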

How the data were processed

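RNA-seq reads of 10 whole-larva libraries had been aligned by the authors with STAR to WBcel235 (annotation release 87) and quantified with RSEM. The deposited counts are normalized, and the study names DESeq2 for differential expression (versions of these tools: not given in the sources used here). Each deposited signal value is such a normalized count for 1 transcript, and between 99.9869% and 100% of the values, divided by what 1 read was worth in a library, came within 0.1 of a whole number. Transcripts were summed per gene. The deposited tables of the authors' own comparisons and of splicing events were not used. The L2 row of F31C3.10 was left out because its cells were shifted.

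limma 3.58.1 (trend, log2(value + 1), R 4.3.3) was run on genes whose mean reached 10, once for L4 and once for all 3 groups of L2. The p-values were adjusted over the genes tested by Benjamini-Hochberg and called below 0.05. On that scale the fold changes of low genes are understated. As alternatives, the recovered reads were tested by edgeR 4.0.16 (quasi-likelihood, TMM or RLE) and DESeq2 1.42.0, and limma was rerun with pseudocounts of 0.5 and 5, with a mean filter of 50 or none, after centring on the median gene, with a replicate block, on the 4 libraries of a comparison alone, and without each library in turn. Where that left a single library in a group, it was assumed to vary like the others. The fits were also run on simulated data, whose outcome is not given here and lends no weight to any call. Python 3.11.15 (numpy 2.4.6, pandas 2.3.3, matplotlib 3.10.9) did the rest.

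The members and marker lists were chosen with earlier results of these data known. Every member is given, and of the lists those past the threshold, up to 4 per list. Some listed genes are also named without a call, namely *hlh-6*, and *scl-3* in *cer39*. *nas-12*, *nas-36*, *noah-1* and *mlt-11*, not called either, were picked because their wild-type L2 libraries lay far apart. At L4 the replicate numbers pair the samples, because the strain labels name the outcross each wild-type sibling came from, although the deviations of same-numbered libraries had a correlation of -0.10 over 15840 genes. Names for C49G7.3 and F15A4.6 came from the reference name table, and lengths, exons and positions from Ensembl release 115. Sequences are not shown here.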

Additional observations from a re-analysis of the deposited data

Results flagged for a closer look

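The changes in *cer6* and *cer39* L2 larvae differed for 3 genes of the family, by the test of *cer6* against *cer39* in the fit of all 6 L2 libraries. *phat-5* had a log2 difference of -4.40 (limma adjusted p = 0.00908), with both *cer39* libraries above all others. *phat-4* had a log2 difference of -1.42 (limma adjusted p = 0.00920), with both *cer6* libraries below all others. *phat-8*, added after its values were seen, had a log2 difference of 1.10 (limma adjusted p = 0.0272), with both *cer6* libraries above both *cer39* libraries. When any single *cer39* or *cer6* library was left out, the *phat-8* call was lost (limma adjusted p between 0.116 and 0.143). The *phat-4* and *phat-5* calls were lost without either *cer39* library (0.0937 and 0.0648 for both), and that of *phat-4* also without *cer6* replicate 1 (0.0529).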

How the results depend on the processing

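Of the 6 members, 0 of 5 tested were called in K718E, 1 in *cer39*, 2 in *cer6* and 2 in *cer6* against *cer39*. In K718E, 1 was called with the replicate block, 1 with centring on the median gene, 1 with the crossed block below, and 1 to 3 when a library was left out. Leaving out a library gave 0 to 2 in *cer39*, 1 to 2 in *cer6* and 0 to 3 between the mutants, where DESeq2 and the fit of only the 4 libraries compared each called 3. The signs that turned belonged to values that were not called. In *cer39*, *phat-2* changed by -0.11 with edgeR TMM, -0.16 with RLE and -0.16 with DESeq2, and in *cer6*, *phat-1* by -0.017 with TMM, -0.057 with RLE and -0.053 with DESeq2. With a library left out, *phat-1* ran from -0.46 to 0.94 in *cer39*, from -0.65 to 0.75 in *cer6* and from -0.59 to 0.22 between the mutants. *phat-2* ran from -0.092 to 0.99 in K718E, from -0.73 to 0.83 in *cer39*, from -0.94 to 0.63 in *cer6* and from -0.47 to 0.066 between the mutants. *phat-4* ran from -0.33 to 0.020 in *cer39*, and *phat-5* from -1.23 to 0.44 and *phat-6* from -0.16 to 0.056 in *cer6*. The cause was not tested.

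Over the whole table, calls in K718E numbered 63, and 40 with no filter, 148 centred, 877 with DESeq2, 625 with the replicate block and 82 to 5173 with a library left out. In *cer39* they numbered 1074, and 2572 with DESeq2, 410 with only the 4 libraries compared, 536 with the replicate block and 0 to 1244 with a library left out. In *cer6* they numbered 4142, and 2473 with only the 4 libraries compared and 1891 to 3983 with a library left out. Between the mutants they numbered 2946, and 0 to 3847 with a library left out. At L4, where same-numbered libraries had a correlation of -0.10, pairing them crosswise, chosen after seeing the data, gave 217 calls over the table. At L2 replicates share only a number, with correlations of -0.17, 0.12 and 0.040 between groups. There the block ended the *phat-8* call in *cer39* (adjusted p = 0.0510, range 0.0000318 to 0.196) and no other call of the family. With 2 libraries a group, changes smaller than the spread between them cannot be resolved.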
